A study of Mus musculus with 4 samples.

Results

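Bile acids are made in the liver from cholesterol, and the genes described here are 10 genes of their synthesis and of its feedback control, out of 19087 mouse genes measured. They were taken as the genes of a fixed list (Cyp7a1, Cyp8b1, Cyp27a1, Cyp7b1, Hsd3b7, Akr1d1, Baat, Nr1h4, Nr0b2 and Fgfr4) for which a probe carried exactly 1 gene symbol in the platform annotation. All 10 were found, on 14 of the 33653 probes with 1 symbol: 7 genes had 1 probe, Cyp7a1 and Baat had 2 and Fgfr4 had 3.

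In the classical route, Cyp7a1 starts the conversion by hydroxylating cholesterol, the rate-limiting step, and Cyp8b1 then adds the hydroxyl group that makes cholic acid. In the alternative route, Cyp27a1, a mitochondrial enzyme, first oxidises the side chain, and Cyp7b1 hydroxylates the resulting oxysterols. Bile acids activate the nuclear receptor FXR (gene Nr1h4), which induces the repressor SHP (Nr0b2) in liver and the hormone FGF15 in the gut. FGF15 acts on the hepatocyte receptor FGFR4, and both arms lower Cyp7a1 and Cyp8b1 transcription.

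Liver total RNA of male C57Bl/6 mice aged 9 months was compared on 4 two-colour arrays. Each array set 1 mutant with a nonfunctional helicase domain of Wrn that had received resveratrol, a plant polyphenol, against 1 untreated wild-type mouse. Wrn is the DNA helicase mutated in the human disorder Werner syndrome. The mutants were 4 animals, whereas the wild-type side held 2, animal 2 on arrays 1 and 3 and animal 4 on arrays 2 and 4, so the 4 ratios are not fully independent. Genotype and treatment differed together and cannot be told apart, and no resveratrol dose is given in the sources used here.

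Values are log2 ratios per gene, averaged over its probes, as the authors deposited them. A positive value is likely treated mutant over wild type, a reading based on the title of the series and the channel order. Mutant RNA was labelled with Cy5 on arrays 1 and 2 but with Cy3 on arrays 3 and 4, and it is not stated whether the ratios of arrays 3 and 4 were already turned. Over all probes, arrays with the mutant in the same dye correlated at r = 0.19 (1 and 2) and 0.21 (3 and 4), and arrays of opposite dyes at -0.18 to 0.11. If arrays 3 and 4 had to be turned, the signs of 6 of the 10 means, those of Cyp7a1, Cyp8b1, Cyp7b1, Hsd3b7, Akr1d1 and Fgfr4, would change, and 0 of all genes would pass the adjusted threshold (1518 had an unadjusted p under 0.05). In the orientation as deposited, 47 of 19087 genes passed, 15 higher and 32 lower; without array 2 or array 4, 0 passed (940 and 926 at an unadjusted p under 0.05). Ratios hold no absolute levels, so neither the labelled tissue nor the abundance of a transcript could be checked, and in whole liver fewer cells of a type and less RNA per cell cannot be told apart. No label places the arrays in extraction or hybridisation batches.

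None of the 10 genes passed limma's threshold of 0.05 after Benjamini-Hochberg adjustment over all genes, against 0.246% of all genes, of which 0.0786% were higher and 0.168% lower. Adjusted p-values of the 10 lay between 0.113 and 0.949. With no adjustment, 5 of the 10 had a p under 0.05, against 6.64% of all genes. Cyp7b1, Cyp27a1 and Hsd3b7 were the 3 above 0 (3.1% of all genes), and Cyp7a1 and Cyp8b1 the 2 below 0 (3.55% of all genes). The same 5 genes had one sign on all 4 arrays, which 15.9% of all genes had, 7.69% above 0 and 8.16% below 0. The median of the 10 means was 0.40, beside -0.00463 over all genes, and 7 means were above 0. In other pathway lists described below, the count at an unadjusted p under 0.05 in limma ran from 1 of 16 feedback regulators to 8 of 14 other synthesis enzymes. The 10 genes had been chosen with results of these data known, so these shares are a description.

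**Figure D1:**
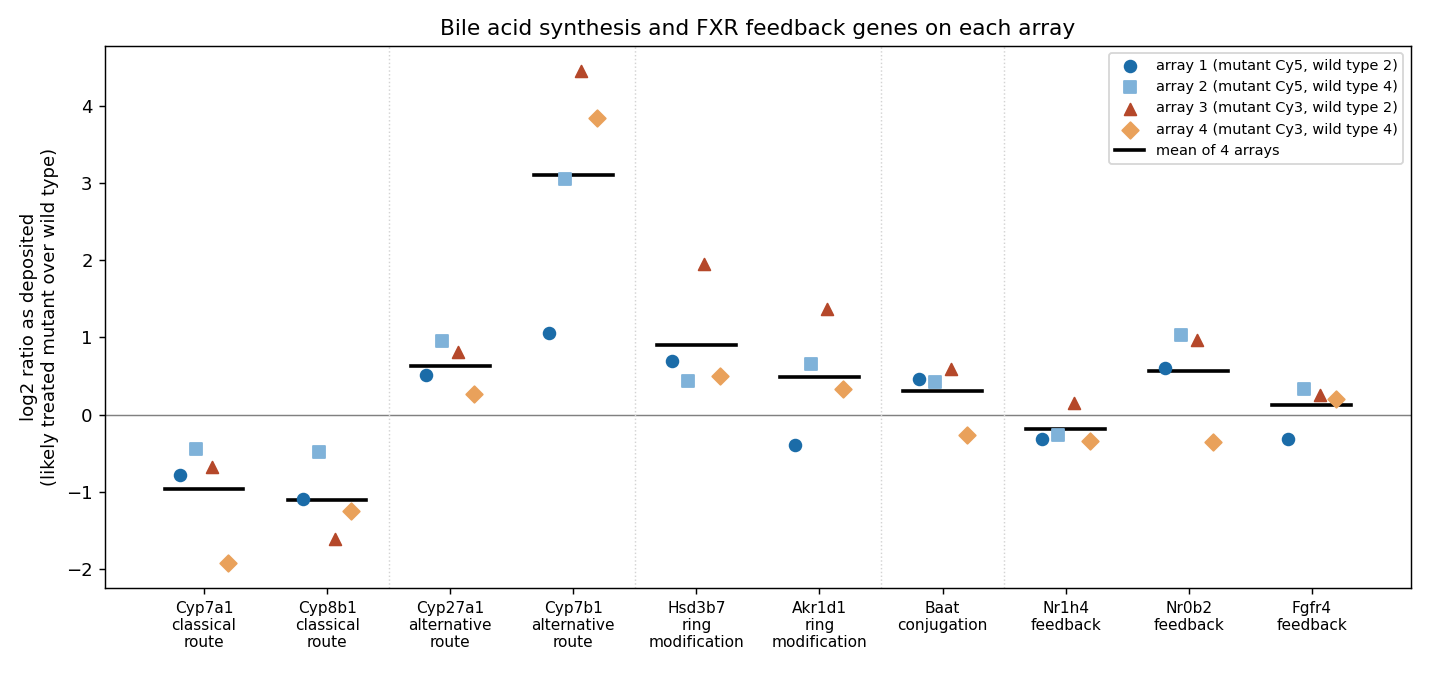
Log2 ratio (vertical axis, as deposited, likely treated mutant over untreated wild type) of each of the 10 genes on each of the 4 arrays, with colour and shape for the array and a black bar for the mean. Cyp7a1 and Cyp8b1 lie below 0 on all arrays, Cyp27a1, Cyp7b1 and Hsd3b7 above 0 on all arrays, and Cyp7b1 spans 1.06 to 4.46.

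Cyp7a1, the gene of the rate-limiting hydroxylase, had log2 ratios of -0.78, -0.45, -0.68 and -1.93 on arrays 1 to 4. All 4 were below 0, with array 4 the lowest. The mean was -0.96 ± 0.66 (SD, n = 4 arrays), a ratio 1.94-fold below 1, with a 95% interval of -1.63 to -0.29 and an adjusted p of 0.495 from limma. Its 2 probes did not give the same size. The first stood at -2.24, -0.73, -1.17 and -2.29, a mean of -1.61 ± 0.78. The second stood at 0.67, -0.17, -0.18 and -1.56, a mean of -0.31 ± 0.93, so on array 1 the probes lay on opposite sides of 0.

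Cyp8b1, the gene of the hydroxylase that sets the share of cholic acid, had ratios of -1.09, -0.49, -1.61 and -1.25. Again all arrays were below 0, and here array 2 was the closest to 0. The mean of -1.11 ± 0.47 (2.15-fold) had a 95% interval of -1.66 to -0.55 and limma's adjusted p was 0.215. As deposited, Cyp8b1 ranked 147 from the lowest mean among all genes and Cyp7a1 ranked 216. With arrays 3 and 4 turned, their means of 0.32 and 0.35 would rank 3300 and 2978 from the highest. The difference between the 2 classical genes, Cyp8b1 minus Cyp7a1, was -0.15 ± 0.67 and had both signs over the arrays, so their order was not resolved. It was 0.11 without array 3.

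Cyp27a1, the mitochondrial side-chain hydroxylase gene, had ratios of 0.51, 0.96, 0.81 and 0.27, all above 0 and close together. Its mean was 0.63 ± 0.31 (1.55-fold), with a 95% interval of 0.16 to 1.11 and an adjusted p of 0.562 (limma). Its SD was larger than that of 25.8% of all genes.

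Cyp7b1, the oxysterol hydroxylase gene, had by far the widest range of the 10, with ratios of 1.06, 3.05, 4.46 and 3.84. Array 1 was the lowest and array 3 the highest, and no array was below 0. The mean of 3.10 ± 1.48 (8.58-fold) ranked 10 from the highest of all genes as deposited, but its SD also exceeded that of 97.8% of genes, and limma's adjusted p was 0.113 with a 95% interval of 1.84 to 4.36. With arrays 3 and 4 turned, the mean of -1.05 would rank 95 from the lowest. Without array 1 the deposited mean was 3.78 and the adjusted p 0.0347, while leaving out array 2, 3 or 4 gave adjusted p-values of 0.634, 0.307 and 0.591. Cyp7b1 also passed in limma after subtraction of the spatial trend on the arrays (mean 2.94, adjusted p = 0.0398) and with wild-type animals as random blocks (adjusted p = 0.0205). In these 2 settings 122 and 194 of all genes passed, against 47 in the main fit. The spatial trend held 34.1%, 19.8%, 21.8% and 12.2% of the variance over probes on arrays 1 to 4. The block had a consensus correlation of -0.37, which shrinks the error of the mean, so its p-values run low.

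Both Cyp7b1 values on arrays 1 and 2 were below those on arrays 3 and 4. The mean was 2.05 on arrays 1 and 2 and 4.15 on arrays 3 and 4, and when limma was fitted with a term for the dye, the difference of -2.10 had an unadjusted p of 0.0282 and an adjusted p of 0.556. Cyp7b1 was the 1 gene of the 10 with an unadjusted p under 0.05 for this term in limma. That is close to the share over all genes, 1683 of 19087. Each mutant was on 1 array only, so the term cannot tell the dye from differences between the mutants. By wild-type animal the means were 2.76 (animal 2) and 3.44 (animal 4). Each of these 4 pairs of arrays left the mean of Cyp7b1 above 2.

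Set against each other, the routes stood on opposite sides of 0 on every array. The mean of Cyp7a1 and Cyp8b1 was -0.93, -0.47, -1.14 and -1.59 on arrays 1 to 4. The mean of Cyp27a1 and Cyp7b1 was 0.78, 2.00, 2.63 and 2.05. The classical minus alternative difference was therefore -1.72, -2.47, -3.77 and -3.64, a mean of -2.90 ± 0.98 (SD, n = 4 arrays), so the classical ratio was 7.47-fold below the alternative one. The difference was smallest in size on array 1 and below 0 on every array. No p is given for it, because the genes were chosen with results known.

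Cyp7b1 enlarged that difference but did not set its sign. With Cyp27a1 alone for the alternative route, the difference was -1.44, -1.42, -1.95 and -1.86, a mean of -1.67 ± 0.27. Cyp7a1 minus Cyp27a1 was -1.59 ± 0.41 and Cyp8b1 minus Cyp27a1 was -1.74 ± 0.45, whereas Cyp7a1 minus Cyp7b1 was -4.06 ± 1.76 and Cyp8b1 minus Cyp7b1 was -4.21 ± 1.73. All 4 of these differences were below 0 on all 4 arrays. Within the alternative route, Cyp7b1 minus Cyp27a1 was 2.47 ± 1.46, from 0.55 on array 1 to 3.65 on array 3. Using only the first or only the second probe of Cyp7a1 gave a route difference of -3.22 ± 0.81 or -2.58 ± 1.19.

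The route difference was -2.09 on arrays 1 and 2 and -3.71 on arrays 3 and 4. By wild-type animal it was -2.75 with animal 2 and -3.05 with animal 4. With arrays 3 and 4 turned it would be 0.81, with opposite signs in the dye pairs, so the direction rests on the orientation as deposited.

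**Figure D2:**
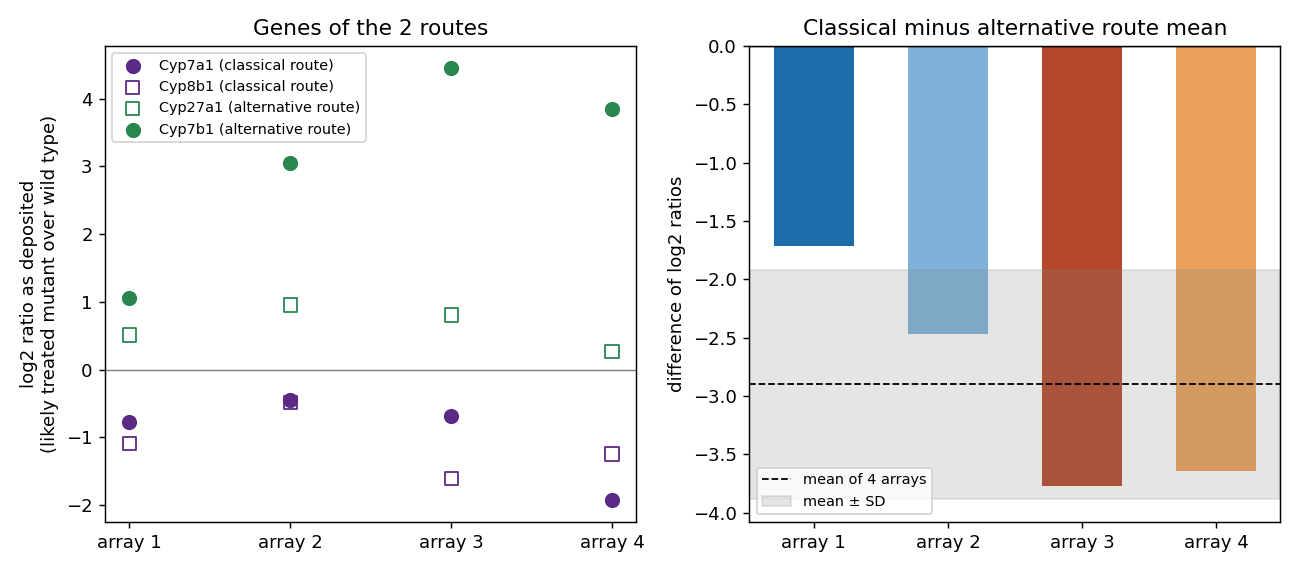
Left, log2 ratio on each array of Cyp7a1 and Cyp8b1 (purple) and of Cyp27a1 and Cyp7b1 (green). Right, bars of the classical minus alternative route difference of log2 ratios, starting at 0, with the mean (dashed) and mean ± SD (grey); all 4 bars are below 0, from -1.72 to -3.77.

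Promoters of a gene of each route are shown so that the start-site regions of genes with opposite signs can be compared. They come from RefSeq on GRCm38.p6 and run from 250 bases before to 50 bases after the transcription start, 5′ to 3′ on the strand of the gene. Of the 10 genes, 7 were matched by symbol; Cyp7a1, Cyp7b1 and Baat were not matched. The Cyp8b1 window is chr9:121916256-121916555 on the minus strand and the Cyp27a1 window is chr1:74713285-74713584 on the plus strand.
Cyp8b1: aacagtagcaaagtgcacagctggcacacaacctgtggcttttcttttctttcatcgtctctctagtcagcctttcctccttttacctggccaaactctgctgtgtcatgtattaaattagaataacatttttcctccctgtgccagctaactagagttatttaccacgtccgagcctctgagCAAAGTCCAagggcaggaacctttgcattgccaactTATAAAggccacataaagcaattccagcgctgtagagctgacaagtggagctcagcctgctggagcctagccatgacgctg
Cyp27a1: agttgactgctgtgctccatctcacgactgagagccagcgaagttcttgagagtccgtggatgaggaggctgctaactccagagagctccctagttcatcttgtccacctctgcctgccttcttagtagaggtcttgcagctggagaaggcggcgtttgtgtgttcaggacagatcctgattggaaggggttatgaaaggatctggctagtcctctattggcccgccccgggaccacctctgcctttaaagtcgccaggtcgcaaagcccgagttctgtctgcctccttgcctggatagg

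Capitals mark matches, on either strand, to 8 short motifs. The motifs searched were the TATA box TATAAA, the HNF4 site CAAAGTCCA, the nuclear receptor half-site AGGTCA, the NR5A half-site CAAGGTCA and the overlapping NR5A core TCAAGG, the D-box TTATGTAA, the STAT5 element TTCNNNGAA and the E-box CACGTG. The Cyp8b1 window held CAAAGTCCA starting 67 bases before the start and TATAAA 31 bases before it. Of 32851 promoter windows of the same length, 0.475% held the first and 13.6% the second. The Cyp27a1 window held none of the 8 motifs, which says only that these letters are not in this window. AGGTCA is contained in CAAGGTCA, so hits to these overlap.

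Hsd3b7 encodes the dehydrogenase that acts on the sterol ring early in both routes. Its ratios were 0.69, 0.44, 1.95 and 0.50, all above 0, with array 3 far above the others. The mean was 0.90 ± 0.71 (1.86-fold), with a 95% interval of 0.19 to 1.60 and limma's adjusted p of 0.595, and it was 0.54 without array 3. Akr1d1 encodes the reductase that follows and saturates a ring double bond. Its ratios of -0.39, 0.66, 1.36 and 0.33 had both signs, and the mean of 0.49 ± 0.73 had a 95% interval of -0.23 to 1.21.

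Baat joins bile acids to taurine or glycine before export. Its gene values were 0.46, 0.43, 0.60 and -0.27, with only array 4 below 0, and the mean was 0.30 ± 0.39 with a 95% interval of -0.21 to 0.82. The value on array 4 came from 1 of its 2 probes, which read 0.36 and -0.89 there. On arrays 1 to 3 both probes lay between 0.34 and 0.68.

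**Figure D3:**
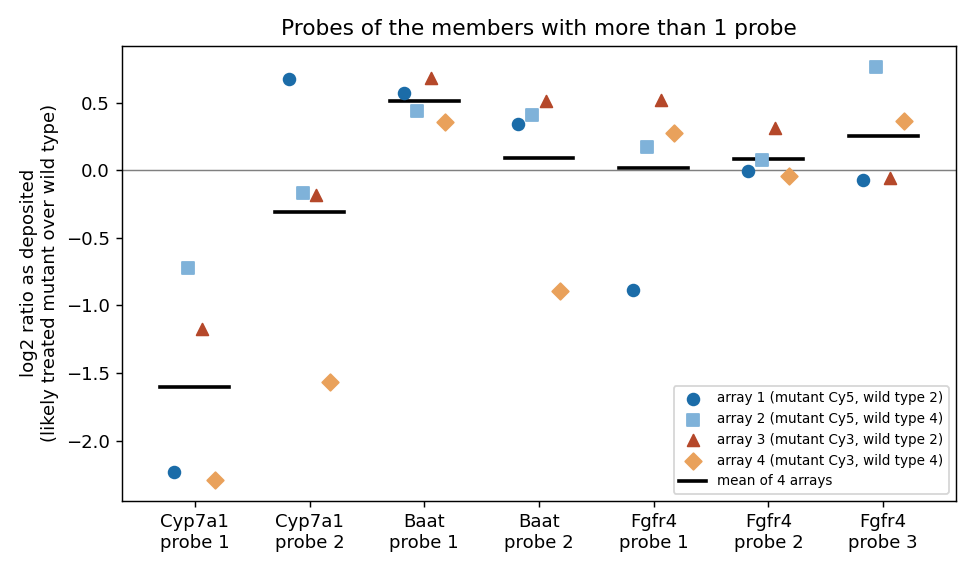
Log2 ratio (vertical axis, as deposited) of each probe of Cyp7a1, Baat and Fgfr4, the 3 genes with more than 1 probe, with colour and shape for the array and a black bar for the mean. The Cyp7a1 probes have means of -1.61 and -0.31, and the second Baat probe is at -0.89 on array 4.

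Each of the 3 feedback genes had ratios of both signs over the arrays. Nr1h4, which encodes FXR, had ratios of -0.31, -0.26, 0.15 and -0.34 and a mean of -0.19 ± 0.23, with array 3 alone above 0. Its 95% interval of -0.64 to 0.26 held 0. Nr0b2, which encodes SHP, had ratios of 0.60, 1.03, 0.96 and -0.35, above 0 on arrays 1 to 3 and below 0 on array 4. The mean was 0.56 ± 0.64 (1.48-fold), with a 95% interval of -0.09 to 1.22 and an adjusted p of 0.807 (limma). On array 4, where Nr0b2 was lowest, Cyp7a1 was lowest too, but so were Cyp27a1, Baat and Nr1h4. A link between Nr0b2 and Cyp7a1 was not tested.

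Fgfr4, the hepatocyte receptor for FGF15, had gene values of -0.32, 0.34, 0.26 and 0.20. The mean was 0.12 ± 0.30 with a 95% interval of -0.36 to 0.59. Its 3 probes had means of 0.02, 0.09 and 0.25, and the first alone was far below 0 on array 1, at -0.89. None of the 3 feedback genes had an interval that left out 0, and each interval still allowed a change in either direction.

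The Nr0b2 promoter is shown because SHP links FXR to the classical route and its start region is known to bind the nuclear receptor NR5A2. The window is chr4:133553126-133553425 on the plus strand of GRCm38.p6 (RefSeq), with the same 8 motifs in capitals.
Nr0b2: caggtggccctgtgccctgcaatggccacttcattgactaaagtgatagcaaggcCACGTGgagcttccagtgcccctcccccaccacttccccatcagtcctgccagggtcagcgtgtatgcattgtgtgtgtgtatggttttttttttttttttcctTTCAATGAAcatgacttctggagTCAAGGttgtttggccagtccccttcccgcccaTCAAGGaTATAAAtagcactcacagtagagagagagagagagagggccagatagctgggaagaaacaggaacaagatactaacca

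The core TCAAGG occurred at 68 and at 35 bases before the start, and 14.4% of all windows held it at least once. The TATA box began 28 bases before the start, a match to the STAT5 element 91 bases and the E-box CACGTG 195 bases before it, motifs held by 13.6%, 8.3% and 7.15% of windows.

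Cyp7b1 is known as a gene more active in male than in female mouse liver, and the labels give all animals as male. A list of 13 measured male-predominant genes, without Cyp7b1, had array means of 1.12, 2.32, 2.98 and 2.80, in the same order over the arrays as Cyp7b1. Of these genes 4 rose (Elovl3 at 3.65, Gstp1 at 3.62, C8a at 3.27 and Nudt7 at 2.92), 0 fell and 9 did not pass, with a median of 2.42. A list of 14 measured female-predominant genes had array means of -2.22, -2.75, -3.53 and -3.24. Of these 5 fell, 0 rose and 9 did not pass, with a median of -2.89. Those that fell were Cyp4a14 at -5.70, A1bg at -4.94, Cyp17a1 at -4.76, Cyp2b13 at -4.04 and Sult3a1 at -3.58, and Cyp3a41a stood at -5.49 without passing. The part of these genes in the Cyp7b1 value was not tested.

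**Figure D4:**
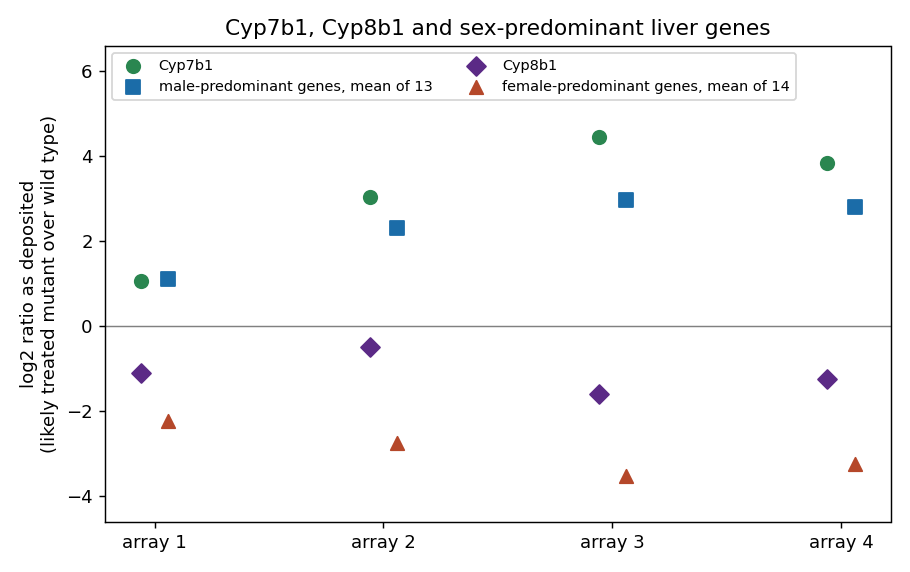
Log2 ratio (vertical axis, as deposited) on each array of Cyp7b1, Cyp8b1 and the mean of 13 male-predominant and of 14 female-predominant liver genes. Cyp7b1 and the male-predominant mean both have their lowest value on array 1, at 1.06 and 1.12, and their highest on array 3.

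The genes whose 4 ratios lay closest to those of Cyp7b1, by Euclidean distance over the 4 arrays, were C8a (distance 0.97), which encodes a complement component, Nat8 (1.31) and Thrsp (1.38), a gene known for its link to lipogenesis. C8a and Nat8 passed the threshold, with means of 3.27 and 3.26, and Thrsp had a mean of 3.14 ± 1.62. For Cyp8b1 the closest were Rad51b (0.26), Erdr1 (0.34) and Crip2 (0.44), with means of -1.05, -1.17 and -0.91, none of which passed. Within a distance of 1 there were 74 genes for Cyp8b1 and 1 for Cyp7b1, so the neighbours of Cyp8b1 are among many.

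Beyond the 10 genes, 14 of 16 other listed bile acid synthesis enzymes were measured, and 1 rose, 0 fell and 13 did not pass. At an unadjusted p under 0.05 in limma, 3 were above and 5 below 0. The one that rose was Cyp2c70, the mouse hydroxylase that makes muricholic acids, with ratios of 1.83, 2.85, 3.03 and 2.97, a mean of 2.67 ± 0.56 and limma's adjusted p of 0.0324. It did not pass without array 2, 3 or 4 (adjusted p = 0.316, 0.107 and 0.221) or with the arrays scaled to the same spread (0.0587). Akr1c6, a ketosteroid reductase gene, stood at 1.34 ± 0.11 and Cyp39a1, an oxysterol hydroxylase gene, at -1.32 ± 0.39, without passing. The peroxisomal genes of side-chain shortening lay on both sides of 0, among them Hsd17b4 at -1.04, Acot8 at -0.79 and Scp2 at 0.70. The median of the list was 0.05.

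**Figure D5:**
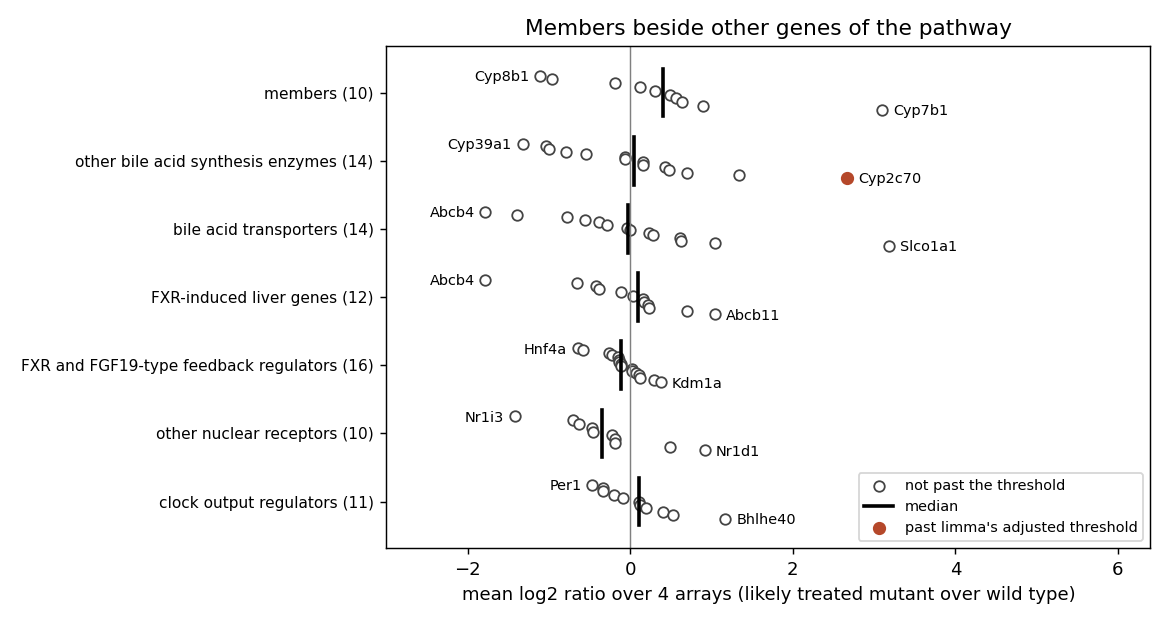
Mean log2 ratio over the 4 arrays (horizontal axis) of every measured gene of the 10 described here and of 6 pathway lists, with the number measured in brackets, a black bar for the median and a red point for a gene past limma's adjusted threshold. Cyp2c70 is the only gene in these 7 rows that passed, and the lowest and highest genes of each row are named.

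Of 14 measured bile acid transporter genes, 0 passed, with 4 above and 3 below 0 at an unadjusted p under 0.05 in limma and a median of -0.02. Slco1a1, an uptake transporter, had a mean of 3.19 ± 1.59 and, like Cyp7b1, its lowest value on array 1 (0.95). Slco1a1 is also a member of the male-predominant list described above. Abcb4, the phospholipid exporter of bile, stood at -1.78 ± 1.14, and Slco1a4, another uptake transporter, at -1.39 ± 0.95. Among 12 FXR-induced liver genes, 0 passed in limma (2 above and 1 below 0 at an unadjusted p under 0.05), and their median was 0.10. Abcb11, the bile salt export pump, stood at 1.04 ± 0.38 and above 0 on all 4 arrays, and Osgin1 at 0.70 ± 0.45, whereas Abcb4 was on the other side of 0.

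Of 16 measured regulators of the FXR and FGF15 feedback, 0 passed in limma and 1, Hnf4a, had an unadjusted p under 0.05. Hnf4a, whose product activates both classical genes, stood at -0.65 ± 0.33, the coactivator gene Crtc2 at -0.58 and the demethylase gene Kdm1a at 0.38. Klb, the co-receptor of FGFR4, had a mean of -0.23. Of 10 other nuclear receptors with bile acid gene targets, 0 passed (1 above and 4 below 0 at an unadjusted p under 0.05), with a median of -0.34. Nr1i3 stood at -1.42 ± 0.74, Nr1d1 at 0.92 ± 0.64 and Vdr at -0.70 ± 2.01, a mean set by a single value of -3.65 on array 3. Of 11 clock regulators 0 passed (1 at an unadjusted p under 0.05, limma), and Bhlhe40 at 1.17 ± 0.92, Dbp at 0.53 and Per1 at -0.47 had both signs over the arrays. Cyp7a1 is known to follow the clock, and the hour of tissue collection was not used here.

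Markers of the cells that a liver sample could hold were read from the same fit. In the lists of hepatocytes (6 measured), bile duct cells (7), Kupffer cells (6), endothelial cells (6), stellate cells (6) and enterocytes (6), 0 genes passed in limma, and 3, 2, 1, 1, 1 and 3 had an unadjusted p under 0.05. Their array means, averaged over the list, ranged from 0.06 to 0.46 for hepatocytes and from -0.39 to 0.60 for bile duct cells. The genes furthest from 0 were Ass1 (1.19), Ttr (0.97) and Hnf4a (-0.65) for hepatocytes, Cdh1 (0.72), Slc10a2 (0.62) and Epcam (-0.39) for bile duct cells, and Vsig4 (-0.49), Cd5l (0.44) and Marco (-0.34) for Kupffer cells. They were Egfl7 (-0.71), Lyve1 (-0.37) and Kdr (-0.16) for endothelial cells, Lrat (-0.58), Colec11 (-0.53) and Reln (-0.19) for stellate cells, and Apoa4 (-2.54), Fabp2 (-0.79) and Slc10a2 (0.62) for enterocytes. Of 4 measured red blood cell genes 1 rose, Alas2 at 2.45 ± 0.48, with Hba-a1 at 1.03 and Hbb-bt at 0.65. The array means of that list were between 0.72 and 1.39, lowest on array 1, and their part in the results was not tested.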

How the data were processed

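The authors deposited 1 log2 ratio per probe and array for 43379 probes on 4 two-colour arrays, with 0 missing values. Per the submitters' processing notes limma was used. Background correction, normalization, filters and the sign convention of the ratios were not stated in those sources, nor was limma's version. The log base is taken as 2 because values reach -8.54 and 7.54. No signal intensities were used, so background could not be judged, and the number of arrays limits the precision. Gene symbols came from the platform annotation, and Entrez IDs of 33517 of 33653 single-symbol probes matched the RefSeq gene table.

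Ratios of all probes of a gene were averaged, and each of 19087 genes was tested against 0 with limma 3.58.1 in R 4.3.3 (intercept only, default eBayes prior with 3.63 degrees of freedom, two-sided), with Benjamini-Hochberg adjustment over all genes. The script was tested on simulated data. P-values treat the 4 arrays as independent samples, although 2 wild-type animals were shared. The alternatives turned, scaled, centred or left out arrays, took the median over probes or single probes, added a dye coefficient, a wild-type block or a robust prior, or subtracted a running median over 11 x 11 spots in a layout of 85 columns. With 97 columns assumed as a check, the running median held 27.3%, 9.5%, 14.8% and 4.9% of the variance on arrays 1 to 4. The members, lists, motifs and tests were chosen with earlier results of these data known. From 15 lists, every gene past the threshold and the 3 with the largest absolute mean were named, with the 3 genes nearest to each member whose absolute mean exceeded 1. Hsd17b4, Acot8, Scp2 and Klb were named after their values were seen.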

Additional observations from a re-analysis of the deposited data

Results flagged for a closer look

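In 8 of 86 sets of 4 array values, 1 array lay apart by more than Dixon's critical share of the whole range, and chance gives about 1 in 20. Of the 10 bile acid genes, these were Hsd3b7, with 1.95 on array 3 against 0.44 to 0.69 on the others, and Nr1h4, with 0.15 on array 3 against -0.34 to -0.26. The difference Cyp8b1 minus Cyp27a1 was -2.41 on array 3 and -1.60 to -1.44 on the others. Among the other named genes, Cyp2c70 was 1.83 on array 1 (others 2.85 to 3.03), Abcb4 was -3.47 on array 3 (others -1.40 to -1.03) and Kdm1a was 0.94 on array 1 (others 0.16 to 0.22). Nr1d1 was -0.031 on array 4 (others 1.20 to 1.29), and Colec11 was -0.26 on array 2 (others -0.64 to -0.61). Array 3 held 4 of the 8 values, array 1 held 2 and arrays 2 and 4 held 1 each.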

How the results depend on the processing

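Each ratio already pairs 1 mutant with 1 wild-type mouse on the same array. The arrays form 1 group of such ratios, so no further pairing was made. With the signs of arrays 3 and 4 turned, the route difference became 0.81, and 0 of all genes passed (limma, with 1518 at an unadjusted p under 0.05), as did 0 of the 10 bile acid genes even at an unadjusted p under 0.05. Of the bile acid genes, the means became 0.35 for Cyp7a1, 0.32 for Cyp8b1, -1.05 for Cyp7b1, -0.33 for Hsd3b7, -0.36 for Akr1d1 and -0.11 for Fgfr4, and the differences became 0.25 for Cyp7a1 minus Cyp27a1, 1.39 for Cyp7a1 minus Cyp7b1, 0.22 for Cyp8b1 minus Cyp27a1, 1.37 for Cyp8b1 minus Cyp7b1 and -1.15 for Cyp7b1 minus Cyp27a1. The means of other genes became Cyp2c70 -0.33, Akr1c6 -0.036, Cyp39a1 0.059, Slco1a1 -0.66, Abcb4 0.47, Slco1a4 0.68, Hnf4a 0.052, Nr1i3 0.55, Vdr 1.27, Dbp -0.0088, Per1 0.48, Abcb11 -0.21, Osgin1 -0.35, Elovl3 -0.87, Gstp1 -0.27, C8a -0.73, Nudt7 -0.47, Cyp4a14 1.53, A1bg 0.50, Cyp17a1 0.066, Cyp2b13 0.73, Sult3a1 0.42 and Cyp3a41a 0.57. They became Ttr -0.51, Cdh1 -0.56, Slc10a2 -0.39, Cd5l -0.073, Marco 0.14, Egfl7 0.014, Lyve1 0.32, Colec11 0.092, Reln 0.19, Hbb-bt -0.25, Rad51b 0.41, Erdr1 0.16, Crip2 0.29, Nat8 -0.77 and Thrsp -0.60.

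Of all genes, 15 passed with the arrays scaled to the same spread, 122 with the spatial trend subtracted and 194 with wild-type animals as random blocks, whose consensus correlation of -0.37 shrinks the error of the mean. In the last 2 settings 1 bile acid gene passed, Cyp7b1. Leaving out each array in turn gave 0 to 34 genes, 0 to 1 bile acid gene past the threshold, 4 to 6 at an unadjusted p under 0.05 and a route difference of -3.29 to -2.61. Cyp8b1 minus Cyp7a1 then ran from -0.42 to 0.11 and Vdr from -1.19 to 0.28, both above 0 without array 3. Medians over probes, centring, a dye coefficient or a robust prior changed no sign. For single probes, only the probe with the lowest p of each gene was read. These probes changed no sign and lost 3 calls among named genes. Other probes of a gene could have the other sign, as for Kdr, with probe means from -0.86 to 0.33. Among those genes scaling lost 8 calls and gained 1, the trend subtraction gained 7, the block gained 11, and leaving out arrays 2, 3 and 4 lost 12, 8 and 12.

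Pairs of arrays were examined after the data had been seen, and 0 genes passed in any (456 to 1581 at an unadjusted p under 0.05), with fewer arrays. The bile acid genes at an unadjusted p under 0.05 numbered 2 on arrays 1 and 2, 3 on arrays 1 and 3, and 3 on arrays 2 and 4. On arrays 3 and 4 they numbered more than 3. Signs differed from the full set for Vdr (0.57) and Per1 (0.013) on arrays 1 and 2, Crtc2 (0.024), Epcam (0.16) and Kdr (0.030) on arrays 3 and 4, Fgfr4 (-0.031) and Dbp (-0.024) on arrays 1 and 3, and Vdr (0.24) and Cyp8b1 minus Cyp7a1 (0.32) on arrays 2 and 4.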
